A study of Mus musculus with 81 samples.

Results

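Germ cells of the P5 gate were compared with germ cells of the P4 gate in the F1 generation of the tributyltin (TBT) lineage. The members were chosen by label alone: the 7 P5 and 7 P4 libraries whose titles name F1, RNA and TBT, which make up 14 of the 81 libraries in the series and form 7 pairs by label number (45-3, 45-4, 45-5, 47-1, 47-3, 47-4 and 47-5). All 14 came from fetal testes at E18.5 (days of embryonic development) of OG2 mice, in which EGFP driven by Pou5f1 regulatory sequence marks germ cells, and from F0 mothers given 50 nM TBT in their drinking water. TBT is an organotin that binds the nuclear receptors RXR and PPARγ. EGFP-positive cells were sorted into the P4 and P5 gates by GFP and side scatter, which is light scattered by the internal structure of a cell, and EGFP-negative somatic cells made up the P6 gate. Germ cells of the vehicle lineage, whose F0 mothers received dimethyl sulfoxide (DMSO), gave 4 more P4 and P5 pairs that are set beside these. The labels do not say whether 1 number stands for 1 fetus, 1 litter or a pool, so the p-values measure the spread between numbered libraries, which may be technical in part.

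The measurement was RNA at long terminal repeat (LTR) elements. LTR elements are copies of retroviruses that entered the germline in the past: an intact copy has an internal region with viral genes between a pair of LTRs, which carry its promoter and its polyadenylation signal, and most copies are solitary LTRs left by recombination. Mouse copies fall into the families ERV1 (for example MMVL30 and RLTR1B), ERVK (for example the intracisternal A particles, IAP, and the early transposons, ETn), ERVL (for example MERVL) and the older ERVL-MaLR (for example MTD, ORR1 and MLT1). Male germ cells erase DNA methylation before birth and lay it down again around the stage sampled here, and the piRNA pathway guides that methylation to young LTR elements. Many LTRs also lie in introns, where RNA of the host gene is read as RNA of the repeat.

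Totals recovered from the files ran from 4279444 to 6304053 reads in P4 libraries (median 4420917) and from 3835481 to 5639202 in P5 libraries (median 5192291). These totals are sums over loci, so a read counted at several loci would enter more than once. Of 970384 LTR loci, 626329 overlapped no annotated gene, 320037 lay in introns and 24018 touched an exon. Values are CPM, read counts scaled to library depth by the authors, and a called change is a false discovery rate (FDR) under 0.05 in limma with label number as a block. RNA over the LTR loci of germ cell genes was present in every library of both gates: the loci of Dazl, an RNA-binding regulator of germ cells, held 335 to 638 CPM in P4 and 263 to 410 in P5, against a mean of 0.401 in P6, and those of Ddx4, the germ cell RNA helicase, held 1823 to 2190 and 1127 to 1842 against 5.45. P6 values here and below are from F1 libraries of the TBT lineage. P6 was normalized in a table of its own, so these levels are set side by side only. The somatic markers Sox9 and Amh hold no LTR locus and were not measured here.

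The sequences of 4 loci outside genes stand at both ends of the contrast described below. The RMER13A2 and RMER5 loci were higher in P5, and the RMER13B and MTE2b loci were lower. Each is a single locus: summed outside genes, the species RMER13B and MTE2b were higher in P5 (log2 differences 1.20 and 1.47), as RMER13A2 was (1.28). The sequences are the plus strand of GRCm38 in the RefSeq copy of that build, the middle 300 bases of each locus or the whole locus where it is shorter (MTE2b), at chr5:147743542-147743841 for RMER13A2, chr6:29669465-29669764 for RMER5, chr3:17596290-17596589 for RMER13B and chr13:102661547-102661698 for MTE2b. The files give no strand for a locus. Capitals mark AATAAA, the polyadenylation hexamer, or TTTATT, the same hexamer on the minus strand.
RMER13A2: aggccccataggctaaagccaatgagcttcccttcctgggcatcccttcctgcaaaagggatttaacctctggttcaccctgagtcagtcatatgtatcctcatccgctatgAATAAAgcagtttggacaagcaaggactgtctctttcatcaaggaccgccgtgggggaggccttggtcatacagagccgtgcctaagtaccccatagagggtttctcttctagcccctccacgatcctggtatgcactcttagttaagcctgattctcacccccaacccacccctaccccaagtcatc
RMER5: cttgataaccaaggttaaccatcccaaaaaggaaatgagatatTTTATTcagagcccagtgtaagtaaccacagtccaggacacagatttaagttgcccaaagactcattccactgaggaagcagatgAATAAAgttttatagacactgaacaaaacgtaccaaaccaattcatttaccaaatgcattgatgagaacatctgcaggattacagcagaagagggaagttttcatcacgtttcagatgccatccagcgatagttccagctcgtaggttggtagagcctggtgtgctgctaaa
RMER13B: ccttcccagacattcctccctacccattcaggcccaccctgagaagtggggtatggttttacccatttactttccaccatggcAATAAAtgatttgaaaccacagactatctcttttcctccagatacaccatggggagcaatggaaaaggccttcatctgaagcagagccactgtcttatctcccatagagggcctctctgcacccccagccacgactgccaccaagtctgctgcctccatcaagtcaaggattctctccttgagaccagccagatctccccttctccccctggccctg
MTE2b: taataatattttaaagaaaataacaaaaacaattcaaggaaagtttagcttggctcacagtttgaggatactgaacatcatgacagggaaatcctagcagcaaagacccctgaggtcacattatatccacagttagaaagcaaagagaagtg
The RMER13A2, RMER5 and RMER13B windows each hold AATAAA, and the MTE2b sequence holds it on neither strand. It was also on neither strand in the windows of the RLTR48A and ORR1C2 loci, which were higher in P5, and of the MT2B2 locus, which was lower. Over middle windows of 300 bases with both strands searched, AATAAA was found in 34.4% of 1838 tested loci outside genes that were higher in P5, in 29.9% of 134 that were lower, in 37.1% of 1655 that did not pass, and in 37.4% of all 286111 loci outside genes that are at least that long. A run of 10 A, to which an oligo-dT primer can anneal, was found in 3.21%, 2.24%, 2.05% and 2.33% of the same sets. A match is a description of the sequence only.

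The share of LTR signal outside genes was higher in P5 in every pair. In P4 the share was 1.83% in 45-3, 1.83% in 45-4, 2.17% in 45-5, 2.38% in 47-1, 1.99% in 47-3, 2.35% in 47-4 and 2.06% in 47-5. In P5 the shares in the same order were 4.76%, 5.29%, 5.91%, 7.34%, 7.2%, 6.91% and 4.57%. The lowest P5 library lay above the highest P4 library, and the means were 2.09% ± 0.225 and 6.0% ± 1.17 (SD, n = 7). The mean paired difference was 3.91 percentage points (exact permutation of the signs of 7 pairs, two-sided p = 0.015625, the smallest p that 7 pairs allow). A share within a library does not depend on how libraries are scaled against each other. It does depend on how often a read was counted at several intronic loci. No share with identical loci counted once was computed.

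**Figure D1:**
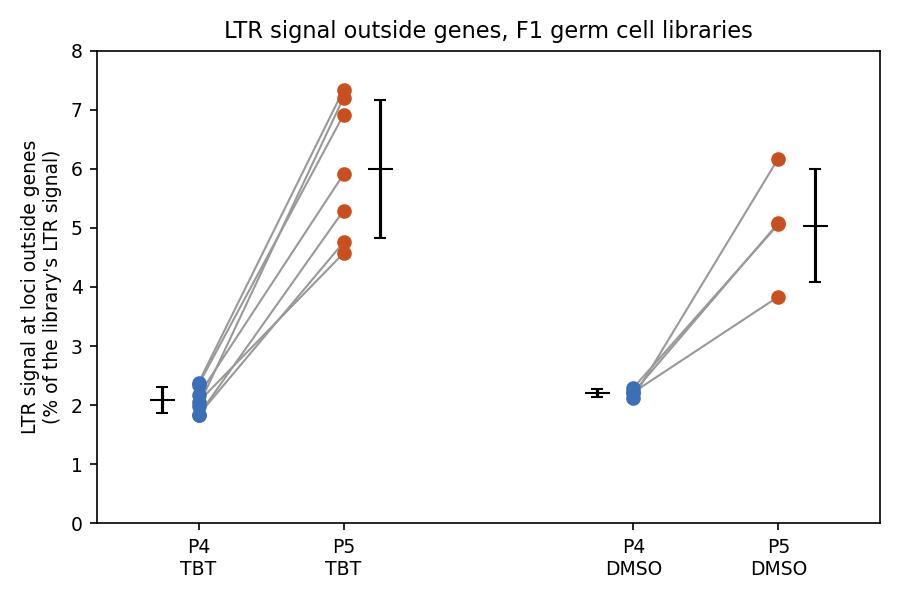
Share of LTR signal at loci outside annotated genes (percent, vertical axis) in P4 and P5 libraries, 1 point per library and 1 line per pair. The 7 TBT pairs rise from between 1.83% and 2.38% in P4 to between 4.57% and 7.34% in P5.

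The breadth of the signal changed with its place. P4 libraries had a read at 157747 to 182848 loci and P5 libraries at 221843 to 283097, with no overlap. Of the loci outside genes, 2.28% to 3.69% held a read in a P4 library and 8.49% to 14.5% in a P5 library. Introns held 90.5% to 91.2% of the signal in P4 and 85.1% to 88.0% in P5, whereas exons held 6.98% to 7.17% and 7.09% to 7.52%. With the 100 highest loci outside genes left out, a choice made after seeing the data, the mean paired difference in the share outside genes was 3.87 points.

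Of 101718 loci tested (a mean of at least 5 times the value of 1 read), 17302 were higher in P5 (17%) and 21981 were lower (21.6%), or 38.6% in either direction. The median log2 difference over all tested loci was -0.10. This split depended on the scaling, since dividing each library by its own total gave 21882 higher and 12740 lower and moved the median by 0.17, and median-ratio scaling gave 20132 and 15975 with a shift of 0.11. It also depended on the filter: with none, 26483 of 475634 loci were higher and 15615 were lower, and with a mean of at least 20 times the value of 1 read, 5289 of 42778 were higher and 20682 were lower. Outside genes the balance was different: 2363 of 4975 tested loci were higher (47.5%) and 210 were lower (4.22%), with a median of 0.95. Fitted alone, loci outside genes gave 2124 higher and 106 lower (2.13%). More than 4-fold changes there were 1494 upward and 3 downward. These counts rest in part on the filter, since 2146 of the 4975 loci reached its level through their P5 mean alone, with 1788 of the higher calls and 1343 of the 4-fold rises, and 244 through their P4 mean alone, with 34 of the lower calls. Of the 2585 loci at that level in both gates, 575 were higher and 176 were lower. At 20 times the value of 1 read, 243 of 581 loci outside genes were higher and 112 were lower (median 0.28), with 118 more than 4-fold upward. In introns 13400 of 90183 loci were higher and 20597 were lower (median -0.14), and at exons 1539 of 6560 were higher and 1174 were lower (median 0.05). The 7 libraries of each gate did not overlap at 4951 loci that were higher in P5 (4.87% of those tested) and 2817 that were lower (2.77%), of which 614 and 10 lay outside genes.

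The 4 families each had a positive median difference outside genes, and differences between families were not tested. ERV1 loci outside genes were higher in 61.1% of those tested with a median log2 difference of 1.65, and ERVK loci in 50.4% with a median of 1.08. The share was 39.3% with a median of 0.63 for ERVL-MaLR and 35.9% with 0.49 for ERVL. These shares are over the same tested loci, many of which passed through P5 alone. Tested loci outside genes that were higher in P5 lay a median of 7411 bp from the nearest gene (40.8% within 5 kb), and those that did not pass lay a median of 7540.5 bp away (40.5% within 5 kb). All loci outside genes, tested or not, lay a median of 16801 bp away.

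Intronic loci of 1 gene are not independent readings. Of 58048 neighbouring pairs of tested intronic loci with no exon between them, 22662 (39.0%) held the same number of reads in all 14 libraries, against 359 of 18617 pairs (1.93%) with an exon between them. How reads that span or map to several loci were counted is not given in the sources used here. Loci were therefore summed by host gene and by repeat species. A sum gives 1 value per gene or species but does not remove repeated counts of a read. Levels are not compared between genes.

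Loci were summed by repeat species (a RepeatMasker name). Of 664 species tested over all loci, 161 were higher in P5 (24.2%) and 285 were lower (42.9%), or 67.2% in either direction, with a median log2 difference of -0.07. Division by library total turned that balance to 333 higher and 141 lower, and median-ratio scaling gave 255 and 205. Summed over only the loci that were tested singly, 71 of 659 species were higher and 420 were lower. Summed over loci outside genes only, 561 of 589 species were higher (95.2%) and 1 was lower (0.17%), with a median of 1.46. Against that median, a centring chosen after seeing the data, 131 were higher and 130 were lower. Of 580 species with at least 50 loci and both values, 347 had a negative difference over all loci and a positive one outside genes, and 229 had a positive difference in both. These signs over all loci refer to the deposited scaling.

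**Figure D2:**
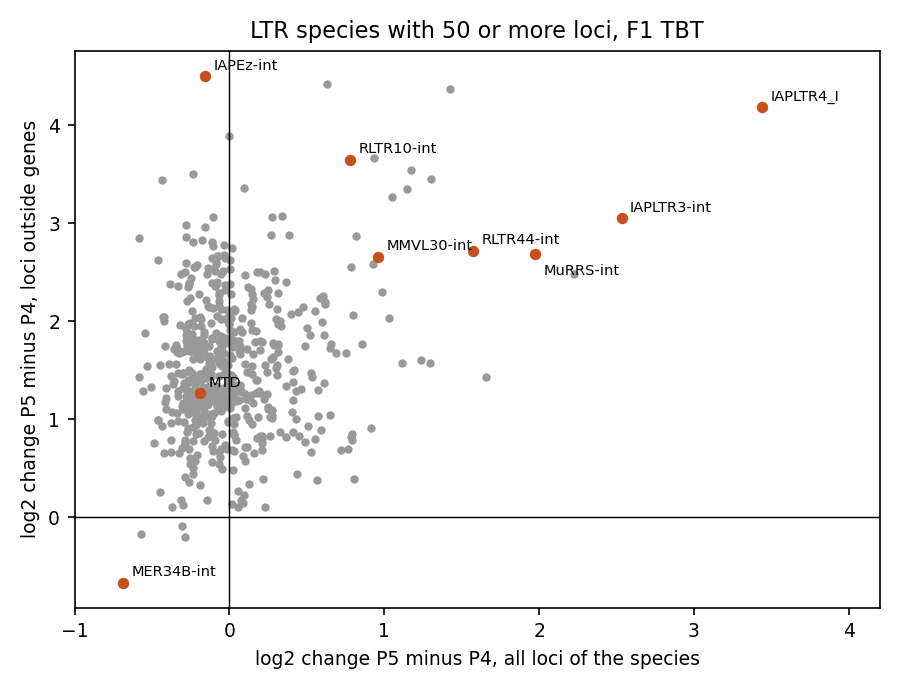
Log2 difference P5 minus P4 of each repeat species over all loci (horizontal axis) and over loci outside genes (vertical axis), 580 species with at least 50 loci. All but 4 points lie above 0 on the vertical axis, and 347 of them lie below 0 on the horizontal axis.

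IAP, a retrotransposon family that is still active in mice and jumps within cells, showed this contrast. IAPEz-int, an internal region and the most abundant IAP species here, held 5.76 to 21.5 CPM outside genes in P4 (median 10.9) and 138 to 436 in P5 (median 260). The ranges did not overlap, and the log2 difference was 4.50 ± 0.15 (SE, n = 7 pairs, FDR = 4.1e-17 in limma). Over all loci IAPEz-int held 3492 to 4288 CPM in P4 and 3171 to 4229 in P5, a log2 difference of -0.16 ± 0.03 (FDR = 0.00027) that turned to 0.016 with division by library total. The signal outside genes was spread widely: of 5486 such loci, 5368 had no read in any P4 library and 3490 none in any P5 library, the highest locus held 3.51% of the P5 signal and the 10 highest held 8.09%. Copies of IAP are nearly identical, so which copy a read came from is uncertain.

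Other IAP species had the largest changes over all loci among species with at least 50 loci. IAPLTR4_I held 0.950 to 6.77 CPM in P4 (median 2.39) and 14 to 78.5 in P5 (median 29.0), a log2 difference of 3.44 ± 0.19 (FDR = 1.1e-11). IAPLTR3-int went from 22.5 ± 8.0 CPM in P4 to 130 ± 40.6 in P5 (SD, n = 7), a log2 difference of 2.53 ± 0.12, and IAPEY5_I-int differed by 2.23 ± 0.12. The P4 and P5 ranges overlapped in none of these 3 species. MuRRS-int, the internal region of an ERV1 relative of leukaemia viruses, held 40.8 to 93.2 CPM in P4 and 170 to 436 in P5 (log2 difference 1.97 ± 0.08). RLTR46A2 was the fifth by size of change, at 3.48 ± 2.53 and 9.68 ± 2.62 CPM (log2 difference 1.66 ± 0.29), and its ranges overlapped.

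The 5 largest falls over all loci, again among species with at least 50 loci, were smaller than these rises. MER34B-int held 1684 to 2299 CPM in P4 and 1172 to 1345 in P5, a log2 difference of -0.69 ± 0.05 (FDR = 1.3e-09). It was also the species that fell outside genes, from 482 ± 54.1 to 303 ± 22 CPM (SD, n = 7; log2 difference -0.66 ± 0.09, FDR = 1.9e-07 in limma). A single locus held 55.7% of its P5 signal outside genes. MER21-int, RLTR26B_MM, RLTR51B_Mm and MLT1F2-int fell by 0.57 to 0.58 on the log2 scale over all loci. Outside genes MER21-int (log2 difference 1.43) and RLTR26B_MM (2.85) were higher instead, and RLTR51B_Mm did not pass (-0.16, FDR = 0.21).

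ERVK and ERV1 internal regions had large differences outside genes, in species named as the most abundant of their group or, for RLTR10-int and MMETn-int, after their values were seen. RLTR10-int held 25.8 to 83.0 CPM in P4 (median 36.5) and 267 to 1025 in P5 (median 580), a log2 difference of 3.65 ± 0.11. MMETn-int, the internal region of ETn elements, which move with enzymes supplied by the related MusD elements, held 11.7 to 57.5 CPM in P4 and 166 to 524 in P5 (3.55 ± 0.12). MMVL30-int, a virus-like ERV1 element, held 54.1 to 102 CPM and 243 to 679 CPM (2.66 ± 0.11). RLTR44-int went from 67.6 ± 16.2 to 450 ± 121 CPM and RLTR1B-int from 144 ± 79.7 to 574 ± 252 (SD, n = 7). The number of copies read also differed: loci read in all 7 libraries numbered 4 in P4 and 84 in P5 for RLTR10-int, 5 and 97 for MMVL30-int, 14 and 98 for RLTR1B-int, and 5 and 64 for RLTR44-int.

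MTD, a MaLR element and the most abundant species of its group, held 783 to 1084 CPM outside genes in P4 and 1732 to 2817 in P5, a log2 difference of 1.26 ± 0.08 (FDR = 6.2e-12). Over all loci it went from 69655 ± 2885 to 61193 ± 4669 CPM (SD, n = 7; log2 difference -0.19 under the deposited scaling). MERVL_2A-int, an internal region of the MERVL type, which mouse embryos transcribe when their own genome becomes active, held 33.7 to 49.3 CPM outside genes in P4 and 124 to 233 in P5 (2.02 ± 0.15). MLT1B, an ancient MaLR element, went from 140 ± 18.6 to 318 ± 68.5 CPM (1.16 ± 0.11).

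Each LTR group, and the species left in no group, held more signal outside genes in P5 than in P4 in 7 of 7 pairs. VL30 with RLTR6 had the largest mean log2 ratio over the pairs (2.44, from 2.11 to 2.82), ahead of ETn with MusD (1.83), MYSERV (1.82) and IAP internal regions (1.82), whose pair ranges overlapped one another. The smallest ratios were those of other ancient elements (0.76, from 0.53 to 1.00), ERVB (0.90) and MERVL-int with MT2_Mm (1.04). A ratio divides by the level in P4, which differed between groups, and per kb of sequence outside genes the order was not the same. The difference P5 minus P4 was 0.207 CPM per kb for VL30 with RLTR6, 0.0615 for IAP internal regions and 0.134 for other ancient elements, and ran from 0.0441 for MERVL-int with MT2_Mm to 0.563 for RLTR1.

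**Figure D3:**
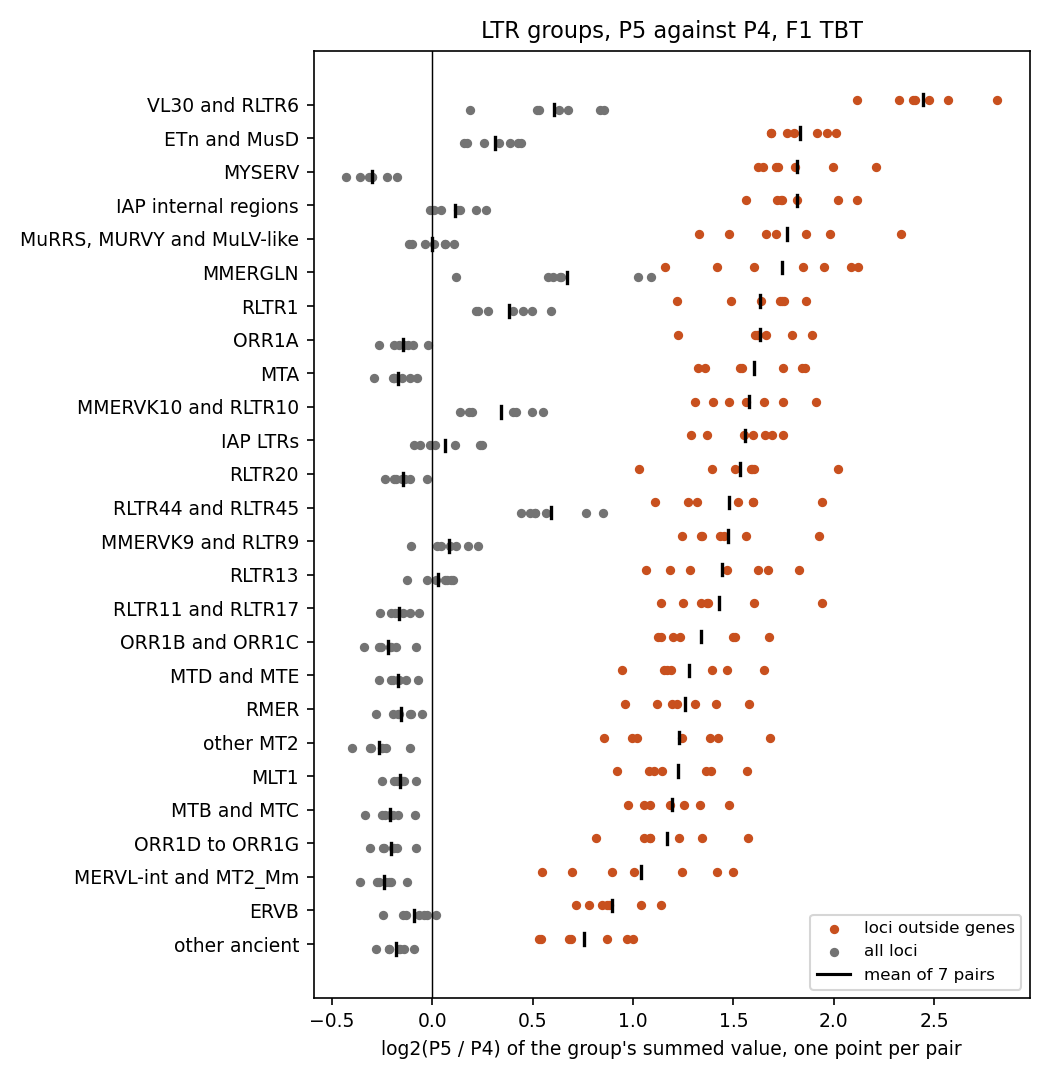
Log2 ratio of P5 to P4 signal for each LTR group, over loci outside genes and over all loci, with 1 point per pair and the mean over the 7 pairs. All points for loci outside genes lie above 0, with means from 0.76 (other ancient) to 2.44 (VL30 and RLTR6).

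Over all loci, 6 groups held more signal in P5 in 7 of 7 pairs: RLTR44 with RLTR45 (22.9% of P4 signal outside genes), MMERGLN (20%), MMERVK10 with RLTR10 (14.7%), RLTR1 (14.7%), ETn with MusD (12.8%) and VL30 with RLTR6 (11.5%). ERVB, with 11.3% of its P4 signal outside genes, held more in only 1 of 7 pairs. The MT, ORR1, MLT1, RLTR20 and RMER groups, with 0.669% to 3.02% of their P4 signal outside genes, held less in 7 of 7 pairs under the deposited scaling. So did MYSERV, RLTR11 with RLTR17, MERVL-int with MT2_Mm and other ancient elements, whose shares lay within that range. The falls are close in size to the scaling shift: by species, division by library total changed MLT1 from 6 higher and 32 lower of 55 to 18 and 13, RMER from 11 and 25 of 53 to 30 and 14, and RLTR20 from 2 and 6 of 16 to 10 and 1. Under the same change MTB with MTC went from 6 to 4 lower of 6 species, with no species higher in either.

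Single loci outside genes with the largest rises were at or near 0 in P4. An RLTR44-int locus (GRCm38, chr6:87960452-87962385, 11575 bp from the pseudogene Rps19-ps9) had no read in 6 of 7 P4 libraries and 3.94 CPM in 45-4, against 8.69 to 36.1 CPM in P5 (median 18.3). The log2 difference was 5.77 ± 0.46 (FDR = 1.6e-10). The RMER13A2 locus printed above (chr5:147743335-147744048, 1468 bp from the gene model Gm43156) held at most 0.796 CPM in P4 and 6.95 to 26.7 in P5 (5.34 ± 0.36), and the RMER5 locus (chr6:29669461-29669769, 24453 bp from Tspan33) held 0 in 6 P4 libraries, 2.19 CPM in 45-5 and 8.68 to 24.7 in P5. None of these 3 loci had overlapping ranges. An RLTR48A locus (chr16:57607980-57608585, 1116 bp from Cmss1) had 2 reads over all P4 libraries and 423 over all P5 libraries, a ratio of 157 with an exact 95% interval, for counting error only, of 50.4 to 1517. An ORR1C2 locus (chr14:120767204-120767569) had no P4 read and 5.65 to 12.9 CPM in P5, at least 13.4-fold higher with 3 reads per library as the floor.

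The 5 named loci that fell outside genes were weakly covered. The RMER13B locus printed above (chr3:17595972-17596907, 73781 bp from Gm38154) held 1.19 to 7.47 CPM in P4 and 0 to 1.41 in P5, a log2 difference of -2.44 ± 0.47 (FDR = 0.00015) with overlapping ranges. An MTB_Mm-int locus (chr9:120788398-120789615) held 2.60 to 7.88 CPM in P4 and 0 to 1.67 in P5, with no overlap (-2.25 ± 0.29). A MYSERV6-int locus (chr6:132623979-132624711, 400 bp from A630073D07Rik) fell by 1.85, the MTE2b locus by 1.81 and an MT2B2 locus (chr2:163945666-163946250) by 1.76 on the log2 scale. The MT2B2 call was lost without pair 47-3 (FDR = 0.052). Over the 7 libraries these 5 loci held between 75 and 220 reads in P4 and between 24 and 86 in P5.

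Inside genes, the largest rises were likewise at loci with few or no reads in P4. A MERV1_I-int locus in an intron of the model AC138676.1 and of Lelp1 (chr3:92137162-92138624) had no P4 read and 8.78 to 35.5 CPM in P5, at least 27.4-fold higher. An MMETn-int locus that overlaps an exon of the zinc finger gene Zfp738 (chr13:67684515-67686528) had no P4 read and 1.59 to 15.1 CPM in P5, at least 10.2-fold higher, and zinc finger genes of this kind have close copies. RMER6C in an intron of Tmeff2 (chr1:50901559-50902217) rose from at most 0.781 CPM to between 4.78 and 19.6, and RMER20C_Mm in Sugct (chr13:17521284-17521815) from at most 1.82 to between 4.12 and 22.3. MTC in an intron of Clta, the clathrin light chain (chr4:44010940-44011341), held at most 1.02 CPM in P4 and 6.74 to 14.3 in P5, and IAP1-MM_I-int in an intron of Cntn6 (chr6:104704407-104707322) held at most 0.342 and 3.65 to 22. The P4 and P5 ranges did not overlap at any of these 6 loci.

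The 6 named loci that fell inside genes were intronic. MLT1C in Calb2, which encodes the calcium buffer calretinin (chr8:110157420-110157484), held 1.19 to 3.64 CPM in P4 and 0 to 1.06 in P5, a log2 difference of -2.01 ± 0.51 (FDR = 0.0023). MLT1B in Aox4 and the model Gm15759 (chr1:58265187-58265320) held 4.27 to 11.3 and 0.824 to 3.48 CPM (-1.44 ± 0.26). MTA_Mm in Acsm4 (chr7:119707652-119708053) held 1.79 to 5.47 and 0.435 to 1.65 CPM (-1.48 ± 0.33). Ranges did not overlap at these 3 loci. MTD in Trak1, ORR1G in Dgkk and RLTR20A4 in Ubr4 fell by 1.68, 1.49 and 1.46 on the log2 scale with overlapping ranges.

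Host gene sums (all LTR loci that overlap 1 gene and no other) gave 1 value for each of 12645 tested genes. RNA of the gene and of the repeats within it cannot be told apart in these sums, and with no strand stated for the reads neither can RNA of an overlapping antisense gene. Of the tested genes, 3219 were higher in P5 (25.5%) and 2228 were lower (17.6%), with a median log2 difference of 0.18. Division by library total gave 3948 higher and 1368 lower, and median-ratio scaling gave 3645 and 1690, with shifts of the median by 0.17 and 0.11.

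The 6 host genes with the largest rises included a pair of fibrillar collagens. LTR loci of Col5a3 held 0 to 10.7 CPM in P4 (median 1.30) and 26.3 to 101 in P5 (median 68.2), a log2 difference of 5.29 ± 0.45 (FDR = 3.8e-05). LTR loci of Col11a1 held 0 to 12.5 CPM (median 6.40) and 34.6 to 158 (median 101), a difference of 5.00 ± 0.58. Their means in somatic P6 cells were 20.6 and 37.5 CPM. Tmtc2, an endoplasmic reticulum protein, held 0 to 3.58 CPM in P4 and 3.91 to 49.4 in P5, and Skint9, a member of a family with close copies, held 0 to 0.796 and 2.17 to 24.4. Sema5b, a semaphorin, held 0 to 12.5 and 11.1 to 40.6 CPM against a P6 mean of 459, with overlapping ranges. Rhox11-ps2, a pseudogene whose reads may belong to its relatives, had no P4 read and 1.11 to 11.4 CPM in P5, at least 9.65-fold higher.

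The 6 largest falls were smaller. LTR loci of Mb, the gene of the oxygen-binding protein myoglobin, held 3.98 to 12 CPM in P4 and 0.353 to 4.39 in P5, a log2 difference of -2.25 ± 0.53 (FDR = 0.0070). Dgkk, a diacylglycerol kinase on the X chromosome, held 11 to 56.7 and 1.52 to 33.7 CPM (-1.76 ± 0.36), and Calb2 held 9.16 to 19.0 and 1.92 to 11.7 (-1.55 ± 0.35). Mb21d2 fell by 1.27, Ccdc81 by 1.26 and Ccdc151, a gene of motile cilia, by 1.22 on the log2 scale. Ranges overlapped in all of the 6 but Ccdc151, at 2.30 to 5.00 and 1.04 to 2.22 CPM.

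**Figure D4:**
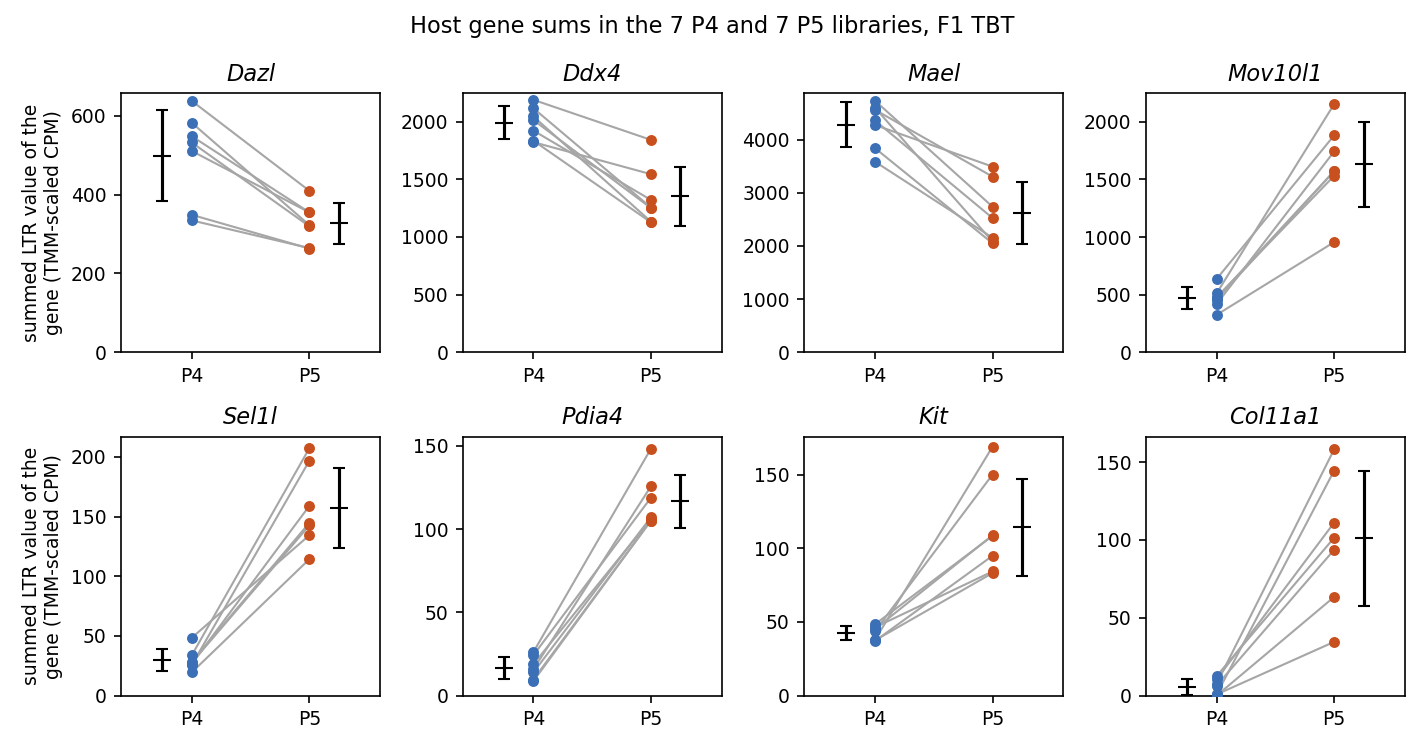
CPM summed over the LTR loci of named host genes in each P4 and P5 library (linear axis). The Mov10l1 loci hold 324 to 635 CPM in P4 and 956 to 2155 in P5, and the Dazl loci hold 335 to 638 and 263 to 410.

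Genes of the piRNA pathway, which cuts transposon RNA into small RNAs and guides DNA methylation to transposons in fetal male germ cells, were mostly lower. Of 17 listed genes, 15 were tested and the other 2 had no LTR locus. In P5, 12 were lower and 1 was higher, with a median log2 difference of -0.57 against 0.18 over all host genes, and the counts were the same with division by library total. Each list count is read beside the 25.5% higher and 17.6% lower over all tested host genes. Mael, a nuage protein, held 3588 to 4736 CPM in P4 and 2050 to 3494 in P5 (-0.73 ± 0.09, FDR = 0.00025). Tdrd1, a scaffold for PIWI proteins, held 278 to 471 and 143 to 351 CPM (-0.71 ± 0.08), and Piwil4 (MIWI2), the nuclear PIWI protein, held 231 to 623 and 141 to 469 (-0.65 ± 0.07). Each of these was lower in 7 of 7 pairs, and the Mael ranges did not overlap.

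Mov10l1, the RNA helicase that feeds transcripts into piRNA processing, moved the other way. Its LTR loci held 324 to 635 CPM in P4 (median 470) and 956 to 2155 in P5 (median 1574), a log2 difference of 1.78 ± 0.08 (FDR = 1.4e-06). The lowest P5 library lay above the highest P4 library, and the P6 mean was 3.17 CPM. In DMSO pairs the means were 424 and 1461 CPM, a mean log2 difference of 1.79 over 4 pairs.

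Of 21 listed genes of DNA methylation and silencing, 18 were tested, 9 were lower and 2 were higher, beside 17.6% lower and 25.5% higher over all host genes. The median was -0.22 against 0.18, division by library total left 5 lower and 3 higher, and 1 was higher without pair 45-3, 45-5 or 47-1. Dnmt3l, the cofactor of de novo methylation, went from a mean of 102 to 68.0 CPM (log2 difference -0.64) and Dnmt3a, its partner enzyme, from 149 to 94.7 (-0.65). Kdm1a, a histone demethylase, held 601 to 878 CPM in P4 and 347 to 599 in P5 with no overlap (-0.67 ± 0.06), and Smchd1, a structural silencing protein, held 134 to 246 and 80.4 to 167 (-0.74 ± 0.14). Trim28, the co-repressor that zinc finger proteins recruit to LTR elements, had no P4 read at its LTR loci and 0.435 to 6.05 CPM in P5, at least 4.72-fold higher. With Trim28 at that bound the median of the list was still -0.22. Tet2, a dioxygenase that oxidizes methylated cytosine, held 1.02 to 5.73 and 1.37 to 12 CPM (0.98 ± 0.47, FDR = 0.12) but passed without pair 47-4 (1.46, FDR = 0.0073).

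Most tested genes of the secretory pathway and the unfolded protein response were higher. Of 28 listed, 19 were tested, 16 were higher in P5 and 3 did not pass, with a median log2 difference of 1.24 against 0.18 over all host genes. The list was chosen with earlier results of these samples known, and Hspa5, a chaperone that the study names for a difference between these gates, holds no LTR locus. The direction of the list is not independent evidence. Pdia4, a protein disulfide isomerase, held 8.70 to 26.1 CPM in P4 and 105 to 148 in P5 (2.88 ± 0.17, FDR = 7.7e-06). Sel1l, an adaptor of the ubiquitin ligase that clears misfolded proteins, held 19.5 to 48.4 and 114 to 207 CPM (2.40 ± 0.16). Neither gene had overlapping ranges. Atf6, a stress sensor in the endoplasmic reticulum, went from a mean of 67.2 to 157 CPM (1.24) and Ern1, which encodes the sensor IRE1, from 27.0 to 47.3 (0.86), whereas the sensor Eif2ak3 (PERK) did not pass (0.49, FDR = 0.12).

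**Figure D5:**
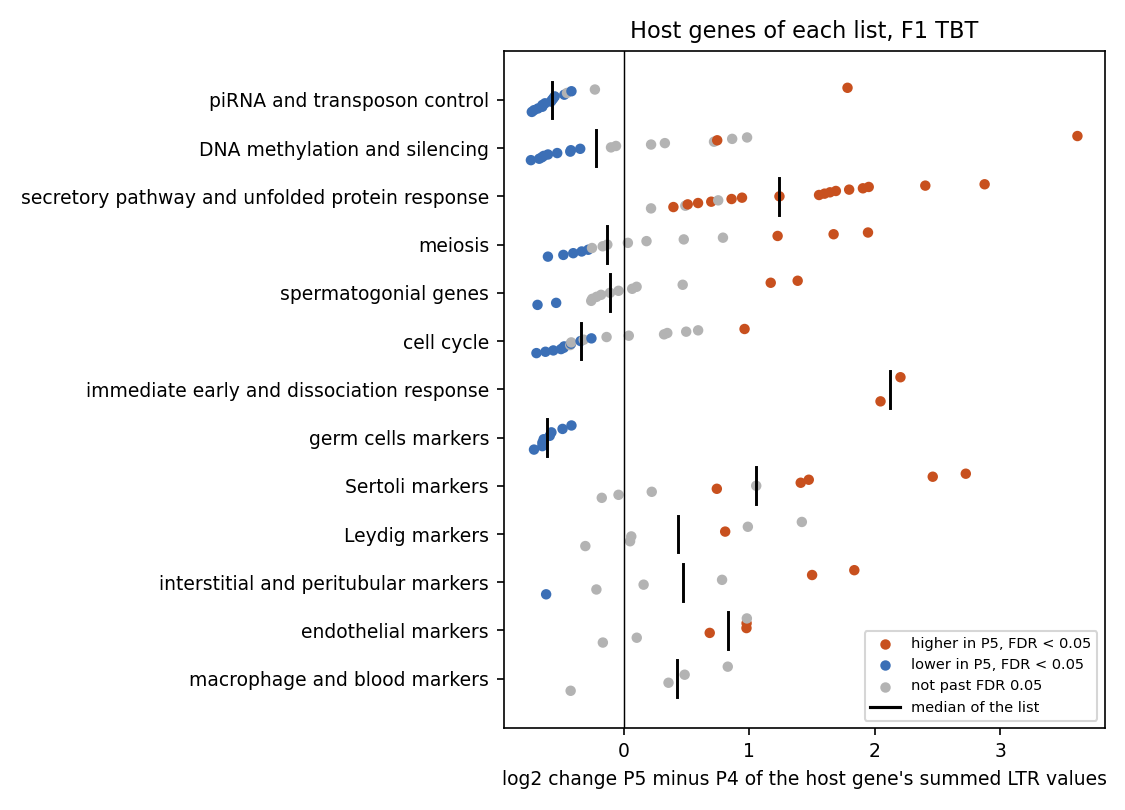
Log2 difference P5 minus P4 of host gene sums in each listed pathway and cell type marker list, 1 point per tested gene with called genes distinguished from the rest. The secretory list lies mostly above 0 (16 of 19 higher) and the piRNA list mostly below 0 (12 of 15 lower), with Mov10l1 the exception at 1.78.

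Meiotic, spermatogonial and cell cycle lists held genes called in both directions, and the shares of meiotic and spermatogonial genes that were higher lay under the 25.5% of all host genes. Among meiosis genes 3 of 15 tested were higher and 5 were lower (3 and 2 under division by library total). The 5 lower became 2 without pair 47-1 and 3 without 45-3, 45-4, 45-5 or 47-3. Sycp2, of the synaptonemal complex, held 10.6 to 21.5 CPM in P4 and 33.3 to 66.3 in P5 (1.67 ± 0.20), and Sycp1 went from a mean of 55.2 to 130 (1.23), whereas Hormad1 (-0.48) and Brdt (-0.60) fell. Hormad2, of the chromosome axis, passed narrowly (1.95 ± 0.72, FDR = 0.049) and lost its call without pair 45-3, 45-4, 45-5, 47-1 or 47-4 (FDR from 0.055 to 0.090). Among spermatogonial genes 2 of 13 were higher and 2 were lower, which is also no more than the 17.6% lower of all host genes. The higher ones were the receptor Kit, at 37.0 to 48.4 CPM in P4 and 83.2 to 169 in P5 (1.39 ± 0.15), and the GDNF receptor Ret, at 13.6 to 34.2 and 37.1 to 71.6 (1.17 ± 0.21). Foxo1 (-0.54) and Stat3 (-0.69), a pair of transcription factors, fell.

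Of 19 cell cycle genes 9 were lower and Brca1 (0.96) was higher, beside 17.6% lower and 25.5% higher over all host genes. Division by library total left 3 lower and 2 higher, and 5 were lower without pair 45-3 or without 47-3. Mcm6, a subunit of the replicative helicase, held 272 to 367 and 148 to 230 CPM (-0.70 ± 0.08). Cdkn2a, a cell cycle inhibitor, passed narrowly (-0.62 ± 0.22, FDR = 0.044) and lost its call without any single pair (FDR from 0.059 to 0.107). Aurkb, a mitotic kinase, did not pass (0.59 ± 0.26, FDR = 0.088) but did under division by library total (FDR = 0.037). Of 18 immediate early genes, which respond to cell handling, 2 had an LTR locus, and both were higher: Atf3 from a mean of 2.32 to 8.50 CPM and Dusp1 from 0.769 to 2.47.

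Germ cell markers were lower in P5. Of 16 listed, 8 were tested, 2 lay below the filter and 6 had no usable LTR locus. All 8 tested were lower (median -0.61), 7 of them under division by library total, and 5 of the 8 also stand in one of the lists above. Dazl fell by 0.59 and Ddx4 by 0.58 on the log2 scale, in 7 of 7 pairs. The summed level of the list was 8159 to 14276 CPM in P4, 5459 to 11021 in P5 and 16.6 to 27.0 in P6.

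Somatic markers that passed were mostly higher in P5, with list sums under those of P6 for the Sertoli, Leydig and interstitial lists. Of 16 Sertoli markers 9 were tested and 5 were higher (median 1.06): Gata4 went from a mean of 16.5 to 26.2 CPM against 715 in P6, Inha from 4.55 to 11.5 against 450, Aard from 2.81 to 8.48 against 253, Fshr from 1.14 to 4.58 against 206 and Etd from 0.987 to 3.29 against 89.5. The other 4 did not pass. The summed Sertoli list was 383 to 1791 CPM in P4, 525 to 1127 in P5 and 2224 to 2771 in P6, and it includes Dmrt1, which germ cells also express (means 696 and 610 CPM, log2 difference -0.04, FDR = 0.84). Of 6 tested Leydig genes 1 passed, Cyp11a1 (10.1 and 16.5 CPM), a share under that of all host genes, and no Leydig gene was higher without pair 45-3, 45-4, 45-5, 47-1 or 47-5, whereas 2 were without 47-4, Cyp17a1 among them (FDR = 0.0079). That list had sums of 334 to 652 CPM in P4, 366 to 630 in P5 and 1172 to 2251 in P6.

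Of 6 tested interstitial and peritubular genes 2 were higher, among them Dcn from 2.87 to 9.48 CPM against 1292 in P6. Acta2, the smooth muscle actin of peritubular cells, was lower (-0.62 ± 0.23, FDR = 0.048) and lost its call in 6 of the 7 fits without a single pair, 47-1 being the exception (FDR from 0.064 to 0.111). That list summed to 24.8 to 37.0 CPM in P4, 31.5 to 54.7 in P5 and 1647 to 2165 in P6. Of 6 tested endothelial genes Pecam1, Tek and Emcn were higher, beside 25.5% of all host genes, but 1 was higher without pair 45-4 and 2 were without 45-3, 47-1, 47-3 or 47-4. That list had sums of 146 to 262 CPM in P4, 185 to 273 in P5 and 66.3 to 176 in P6. The 4 tested macrophage and blood genes had FDR from 0.20 to 0.66, with list sums of 12.5 to 51.8, 29.0 to 40.6 and 47 to 110 CPM. No list member with an LTR locus of its own was at 0 in all 14 germ cell libraries. The part of somatic RNA in the difference between P4 and P5 was not tested, and fewer cells of a type and less RNA per cell cannot be told apart in bulk samples.

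The share outside genes was also higher in P5 in the DMSO lineage. DMSO pairs 43-4, 43-5, 44-1 and 48-4 held 2.21%, 2.29%, 2.13% and 2.22% of LTR signal outside genes in P4 and 5.08%, 5.06%, 6.18% and 3.84% in P5. The paired difference was 3.91 ± 1.03 percentage points in TBT (SD, n = 7 pairs) and 2.83 ± 0.992 in DMSO (n = 4 pairs), a difference of 1.09 points (exact permutation test, two-sided p = 0.121, smallest possible 0.00303). Outside genes the DMSO log2 differences were 3.82 for IAPEz-int, 2.09 for MMVL30-int, 0.97 for MTD and -0.63 for MER34B-int, beside 4.50, 2.66, 1.26 and -0.66 in TBT. LTR loci of Pdia4 differed by 2.29 in DMSO and 2.88 in TBT, those of Kit by 1.65 and 1.39, and those of Dazl by -0.63 and -0.59.

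The features named for the largest TBT changes, a choice that favours TBT, were mostly smaller in DMSO. Of 22 named loci 21 had the same sign there and 21 a smaller difference, and of 12 host genes all 12 had the same sign and a smaller difference. The MT2B2 locus differed by 0.19 in DMSO and -1.76 in TBT, the MTA_Mm locus in Acsm4 by -0.06 and -1.48, the RLTR44-int locus by 1.12 and 5.77, and the LTR loci of Sema5b by 0.89 and 4.69. Among the other named host genes Atf3 (-1.36 in DMSO and 2.05 in TBT), Wt1 (1.64 and -0.17), Adgre1 (-0.74 and 0.83) and Ptprc (2.67 and -0.42) differed in sign.

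In a test of the difference between lineages itself, limma called 0 of 101539 loci (0%) at FDR 0.05 (lowest FDR 0.217), with 6148 at an unadjusted p under 0.05, while edgeR's quasi-likelihood test on recovered reads called 3 higher and 0 lower in TBT. Limma called 0 of 12601 host gene sums (901 at an unadjusted p under 0.05), 0 of 664 species totals (28) and 0 of 590 species totals outside genes (74). The locus with the lowest p was an RLTR13C3 element outside genes (chr6:124783420-124784295). It had no read in any TBT P4 library and 2.38 to 8.14 CPM in TBT P5 libraries (FDR = 0.217). In DMSO it had no read in P5 libraries and 1.81 CPM in P4 library 43-4, the only DMSO library with a read. An RLTR44-int element (chr19:6895314-6896473) followed, with no TBT P4 read and 4.16 to 12 CPM in TBT P5, against 0.915 to 2.54 CPM in DMSO P4 and 3.53 to 12.6 in DMSO P5 (FDR = 0.217). Neither locus passed, and the DMSO side rests on 4 pairs.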

How the data were processed

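RNA of FACS-sorted fetal testis cells was reverse transcribed from an oligo-dT primer and sequenced by the authors, who trimmed reads with Trim Galore, aligned them to GRCm38 (mm10) with STAR and counted them at RepeatMasker LTR loci with a modified ERVmap. The signal values the authors deposited are CPM scaled by TMM. Low values showed what 1 read is worth in each library, and 100% of values above 0 were whole reads (tolerance 0.02), so reads were recovered for count tests. These reads carry no molecular identifiers, so intervals cover counting error only.

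Loci were placed against the GRCm38 annotation with bedtools 2.31.1. Log2(value + 1 unit), a unit being 0.229 CPM or the median value of 1 read, was tested in limma 3.58.1 (R 4.3.3, trended variance, Benjamini-Hochberg FDR) with label number as a block, for features with a mean of at least 5 units over 14 libraries. Changes are on that log2 scale, which understates those of low loci. The pairing rests on the label numbers alone. Alternatives were no block, other pseudocounts, filters and scalings, edgeR 4.0.16 and DESeq2 1.42.0 on recovered reads, and leaving out each pair. 3 more were added after seeing the data. Fits were tested on simulated data.

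Named loci and genes were the largest called changes with 1 sign in 7 pairs, and named species the largest called changes among those with at least 50 loci. Also named were the extremes of each list, the most abundant species of each LTR group and set markers. Unnamed gene models and mouse chromosome 18 were passed over. Other genes and species named from the lists are additional and were picked after their values were seen. The members and lists were chosen with earlier results of these data known. Methylated DNA, F3 libraries other than TBT germ cells and the DMSO P4 library without a P5 partner were not used here.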

Additional observations from a re-analysis of the deposited data

Results flagged for a closer look

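A library stood far from the other 6 of its group in 19 of the 228 groups of 7 examined, by Dixon's ratio of the gap to the range at its 95% limit. Chance gives about 1 in 20 for normally distributed values. CPM with many values at or near 0 are not so distributed, so the number of flags is not a test against chance. All 19 were the highest of their group, and values are in CPM with the next highest library in brackets. In P4, pair 47-3 gave 10.7 (2.74) for Col5a3, 26.8 (11.1) for Hormad2, 7.12 (0.856) for Fshr, 4.27 (1.75) for Ptprc and 5.46 (3.18) at the MTE2b locus. Pair 47-4 gave 0.781 (0.25) at the RMER6C locus, 1.82 (0.597) at the RMER20C_Mm locus and 4.69 (1.19) for Etd. Pair 47-1 gave 3.75 (1.03) for Dusp1 and 7.5 (3.08) for Dcn. At loci at or near 0 in the other P4 libraries, 45-4 gave 3.94 (0) for RLTR44-int, 47-5 gave 0.512 (0) for RLTR48A, and 45-5 gave 2.19 (0) for RMER5 and 0.796 (0.171) for RMER13A2. In P5, 47-3 gave 26.7 (14.8) for RMER13A2, 45-4 gave 22 (9.88) for IAP1-MM_I-int and 47-1 gave 11.7 (5.84) for Calb2. Dmrt1 was highest in pair 45-3 in both gates, at 1759 (650) in P4 and 1076 (637) in P5. The cause was not tested.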

How the results depend on the processing

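Over 2844 recomputations of 148 single values, 2715 kept their direction and side of the threshold, 74 lost the call, 21 gained it and 34 changed sign. Depth limits single loci: a mean of at least 5 units keeps 101718 of 970384 loci.

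Without the replicate block the pairing was dropped and calls were 14834 higher and 15070 lower for loci, 2944 and 1642 for host genes, 133 and 238 for species, and 552 and 1 for species outside genes, and 1 locus differed between lineages. Each count but the last was within 1.5 times that with the block. Acta2 (FDR = 0.051), Cdkn2a (0.12), Piwil4 (0.066), and the totals of IAPEz-int (0.068) and RLTRETN_Mm (0.088) lost their calls, 2 cell cycle genes (9 with the block) and 3 meiosis genes (5) were lower and no Leydig gene (1) was higher, and p for the share outside genes was 0.000583 (exact permutation of 14 libraries). Same-numbered libraries deviated with correlations from 0.023 to 0.28, above 0.1 in 5 of 7 pairs and highest for the own number in 4.

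Loci numbered 26483 higher and 15615 lower of 475634 with no filter, 5289 and 20682 of 42778 with a mean of at least 20 units, 10776 higher (10503 lower) from the 47 pairs alone and 2124 (106 lower) fitted outside genes alone, and 12740 lower with a common total per library. Host genes numbered 1544 higher and 1225 lower from the 45 pairs, 1599 and 881 from the 47 pairs, and 1368 lower with a common total. Species numbered 333 higher and 141 lower with a common total, 255 higher with median-ratio scaling, and 71 higher and 420 lower from singly tested loci. Outside genes they numbered 131 higher and 130 lower centred on their median (chosen after seeing the data), and 2 lower in DESeq2, in the 45 pairs and without 47-1 or without 47-3. The lineage difference gave 3 loci higher in edgeR. What the 45 and 47 of the labels stand for is not given in the sources used here.

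Leaving out 1 pair at a time gave 15532 to 16681 loci higher and 18110 to 21597 lower, 2768 to 3035 and 1854 to 2188 host genes, 139 to 161 and 260 to 294 species, 550 to 560 and 1 to 2 species outside genes, and a share difference of 3.70 to 4.15 points (each p = 0.03125, the smallest that 6 pairs allow, exact permutation). The lineage difference ran from 0 to 3 higher and 0 to 1 lower, 3 and 1 coming without DMSO pair 48-4.

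Signs changed with a common total for the totals of IAPEz-int (0.016), IAPLTR2_Mm (0.14), MLT1B (0.033), MurERV4-int (0.14), ORR1A2 (0.023), RLTR10 (0.16) and RLTR13D3A1 (0.11), for RLTR51B_Mm outside genes (0.0074), and for Dmrt1 (0.13) and Vwf (0.0064). Median-ratio scaling changed IAPLTR2_Mm (0.081), MurERV4-int (0.073), RLTR10 (0.096), RLTR13D3A1 (0.047) and Dmrt1 (0.069). The 45 pairs alone changed Cdh5 (-0.35), Myh11 (0.30), Ptprc (0.73) and MMERVK9C_I-int (-0.020), which singly tested loci also changed (-0.26), and the 47 pairs alone changed Dmrt1 (0.30), IAPLTR2_Mm (0.071), RLTR10 (0.041) and Vwf (0.018). A pseudocount of 0.25 unit changed Wt1 (0.19). Leaving out 1 pair gave -0.13 to 0.070 for Dmrt1, -0.039 to 0.011 for RLTR10, -0.072 to 0.0011 for IAPLTR2_Mm (above 0 without 45-5), -0.51 to 0.037 for Myh11 (without 47-5), -0.73 to 0.22 for Ptprc (without 47-3) and -0.50 to 0.040 for Wt1 (without 45-5). The cause of these changes was not tested.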

Other observations

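In the F3 generation of the TBT lineage, whose values come from a table normalized on its own, 5 P4 and P5 pairs are set beside those of F1 as values with no test. Pair 6 held 2.05% of LTR signal outside genes in P4 and 6.44% in P5, pair 7 held 2.79% and 6.06%, and pair 8 held 3.22% and 11.2%. Pair 9 held 12.1% and 11.9%, with 1187234 reads in P4 and 4130319 in P5, and pair 5 held 11.4% and 31.1%, with 833449 and 246520 reads. The other F3 libraries held 3549702 to 7216887 reads. Outside genes the mean log2 difference over the 5 F3 pairs was 4.66 for IAPEz-int, 2.13 for MMVL30-int and 1.01 for MTD, each higher in 5 of 5 pairs, and -0.95 for MER34B-int, higher in 1 of 5.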
